A study of Mus musculus with 4 samples.

Results

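The insulin-like growth factor (IGF) system was followed across 4 clonal lines of c17.2, a mouse neural stem cell line derived from neonatal cerebellum and immortalised with v-myc. It was represented by 9 genes, the ligands Igf1 and Igf2, the receptors Igf1r and Igf2r, and the binding proteins Igfbp2 to Igfbp6, taken by gene symbol from the array annotation. They matched 14 of 12469 rows (probe sets). For 13 of these the annotation gives 1 gene. The only row for Igfbp5 is also annotated to Tmem119, so the annotation alone does not assign its signal to either gene. The GenBank sequence given for that row was not compared with the genes. The genes were chosen by family with the differences between these clones already known, above all that of Igfbp3. Their differences are therefore given as descriptions, without p-values.

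Clone 42 and clone 48 are the stable lines labelled as overexpressing Nurr1, a transcription factor of the nuclear receptor family whose gene is Nr4a2, and puroB and puroD carry the empty puromycin resistance vector. All 4 lines are single clones grown under proliferating conditions, and each gave 1 array, so the spread within a clone is not known. By the sample descriptions, clone 42 had been matched with puroB and clone 48 with puroD by proliferation rate. The design text of the series also writes clone 42 beside puroD. The other pairing was not run, so all differences within pairs rest on the sample descriptions. Median signals of the arrays lay between 125.6 and 160.1. The highest control for a transcript that had not been spiked in, read here as background, lay between 39.1 and 62.7. Nr4a2 went against the label: its signals at 92248_at were 320.1 in clone 42 and 206.4 in clone 48, compared with 485 in puroB and 254.2 in puroD, and at 92249_g_at they were 188 and 113.5 against 371.9 and 213.2. Whether its probes lie in the introduced sequence was not tested. The transfected lines are therefore called Nurr1-labelled clones.

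Of 12 neural stem and progenitor markers on the array, 8 were above background on all 4 arrays, among them the intermediate filament nestin (Nes, 3029.8 to 3719.8), whereas the probe set of Vim exceeded it on 2 arrays and that of Hes5 on none. Summed signals of the markers of the neural stem list were 6195.6 in clone 42 and 6882.5 in clone 48, compared with 7478.7 in puroB and 8066.9 in puroD. Without Nes they were 3021.8 and 3162.7 against 4153.5 and 5037.1. Much of the difference came from Fabp7, with 564.5 and 157.3 against 1292.5 and 1539. Of the 8 markers, Id3 went the other way in both pairs (792.8 and 1337.9 against 644.1 and 1174.9). Summed signals of 9 fibroblast and mesenchymal markers were 8988.2 and 6101.6 against 3050.6 and 4186.9, with 4 markers above background on all arrays and Acta2 on none. Col3a1 made up much of these sums: without it they were 3968.3 and 2091.6 against 1762.2 and 2436.4, and Col1a1, with 207.7 in clone 48 and 559.3 in puroD, went the other way in that pair. Those of 9 neuronal markers were 6953.9 and 5516.5 against 3440.5 and 3404.4, with Gap43, Syp and Snap25 above background on none. Without Tubb3, the brightest of them, these sums were 1265.9 and 883.9 against 737.3 and 700.8, and Map2, above background in both controls only, had 45.8 and 4.2 against 198.1 and 120.3. For microglia and macrophages the sums were 828.7 and 554.5 against 859.6 and 820.7, with Itgam, Aif1, Ptprc and Lyz2 above background on none, and for endothelium 3402.3 and 4162.7 against 4271.6 and 4593.4, with Tek and Cdh5 on none. Eng made up most of the endothelial sums, which without it were 230 and 146.3 against 253.9 and 172.9. The astrocyte sums were 4437.3 and 3359.4 against 5346.8 and 5278.7, with Aqp4 above background on none. Without Gja1, the brightest, they were 1733.9 and 712.9 against 1060.1 and 744.3, so that clone 42 then exceeded puroB. The oligodendrocyte sums were 448 and 316.4 against 608.6 and 497.6, with Cnp and Mog on none. Without Pdgfra they were 224.9 and 287 against 376.2 and 285.6, nearly level in the pair of clone 48. In such bulk RNA, fewer cells that express a gene and less RNA per cell cannot be told apart.

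Igf1 and Igf2 are secreted peptides related to insulin. Both act through Igf1r, a receptor tyrosine kinase that feeds the PI3K-Akt and MAP kinase pathways and promotes growth and survival of neural progenitors. Igf2r, the cation-independent mannose 6-phosphate receptor, takes up Igf2 for degradation and sorts lysosomal enzymes. The binding proteins hold most IGF outside the cell and can block or prolong its action, and proteases release it from them.

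Nurr1 binds DNA as a monomer at the element AAAGGTCA (the NBRE), whose last letters, AGGTCA, form the core hexamer shared by many nuclear receptors. RefSeq promoter windows of GRCm38.p6, from 250 bases before to 50 bases after each annotated start, were matched by symbol for all 9 genes (13 windows) and searched on both strands. The NBRE was in 0 of these 13 windows and in 1.51% of all 32851 windows. The core hexamer was in 4 of 13, 1 window each of Igf1, Igf2, Igf1r and Igf2r, against 16.3% of all windows, and in no window of a binding protein gene. Igf1 and Igfbp3 are shown because, of the 7 tested IGF probe sets, those with the 3 largest differences between labelled groups belong to these genes. Capitals mark the core hexamer, which begins 161 bases before the start of Igf1 and is not in the window of Igfbp3.
Igf1, chr10:87860861-87861160, plus strand: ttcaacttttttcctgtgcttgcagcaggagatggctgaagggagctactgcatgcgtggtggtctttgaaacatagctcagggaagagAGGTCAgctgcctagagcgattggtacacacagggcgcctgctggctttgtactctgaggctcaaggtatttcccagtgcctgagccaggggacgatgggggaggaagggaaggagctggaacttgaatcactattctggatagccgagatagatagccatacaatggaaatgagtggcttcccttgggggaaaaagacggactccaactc
Igfbp3, chr11:7213874-7214173, minus strand: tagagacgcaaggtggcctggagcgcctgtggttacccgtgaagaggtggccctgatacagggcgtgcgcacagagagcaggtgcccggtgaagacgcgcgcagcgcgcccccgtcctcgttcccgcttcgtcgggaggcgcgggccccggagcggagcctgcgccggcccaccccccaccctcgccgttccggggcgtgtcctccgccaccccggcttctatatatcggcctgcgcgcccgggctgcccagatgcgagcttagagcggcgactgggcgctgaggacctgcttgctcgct
The Igfbp3 window held 37 CpG dinucleotides and 71.7% G and C, and the Igf1 window 6 and 52.3%, where the medians over all windows were 7 and 52.7%. The letters of a TATA box (TATAAA), on either strand, were in the window of Igfbp4, in that of Igfbp6 on the opposite strand only, and in 13.6% of all windows. Those of a GC box (GGGCGG) were in windows of Igfbp2, Igf1r, Igf2 and Igf2r and in 35.7% of all windows. These are matches of letters and say nothing about binding.

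The study set the Nurr1-labelled clones against the vector clones to look for transcripts that differ with Nurr1, which these arrays did not show to be higher in the former. A probe set was tested if its signal was above 145.05, the median of the whole table, on 2 or more of the 4 arrays, which left 6419 probe sets, among them 7 of the 14 members. The 7 were those of Igf1 (both probe sets), Igf1r, Igf2r and Igfbp3 (both probe sets), and the row shared by Igfbp5 and Tmem119. In limma 7 of 6419 probe sets (0.109%) passed a Benjamini-Hochberg adjusted p of 0.05, and 0 of the 7 tested members did. An unadjusted p under that level was seen in 3 of the 7 and in 474 (7.38%) of all tested probe sets. The count that passed depends on the scaling: with each array scaled to one median, 51 probe sets passed, among them Igf1 95546_g_at and Igfbp3 95083_at. Without clone 42, Igf1 95546_g_at was among 27 that passed. Because the members were chosen with this contrast known, none of these counts is evidence about them. Signals below are the deposited linear values. Log2 differences were taken after values under 40.3 had been set to that floor.

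**Figure D1:**
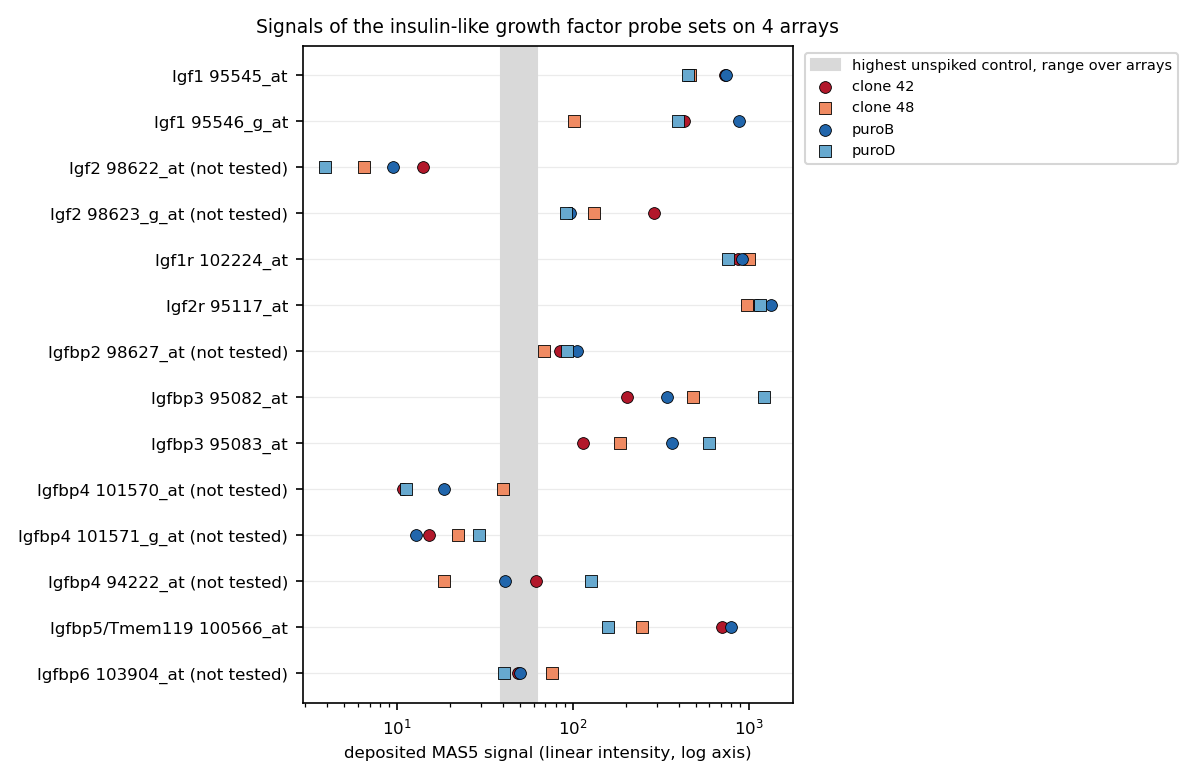
Deposited signals (log axis) of the 14 probe sets on the 4 arrays, 1 point per array, red tones for Nurr1-labelled and blue tones for control clones, circles for the pair of clone 42 and squares for that of clone 48. The grey band spans the highest unspiked control over the arrays, 39.1 to 62.7. Both receptors lie in narrow groups, Igfbp3 is spread with the controls to the right within each pair, and the row shared by Igfbp5 and Tmem119 separates circles from squares.

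Among the ligands, the probe sets of Igf1 gave different pictures. At 95545_at the signals were 731.6 in clone 42 and 742.8 in puroB, and 467.6 in clone 48 and 452.6 in puroD. The matched arrays were nearly level and the pairs stood apart. The log2 difference by label was -0.02 and 0.05 in the pairs, with a mean of 0.01 ± 0.29 (SE; n = 2 clones for each label), whereas the pair of clone 42 exceeded that of clone 48 by 0.68. The SE here and below is limma's moderated one, taken mostly from the spread over all tested probe sets, not from these differences. At 95546_g_at, annotated to the same GenBank sequence, the signals were 432.2 in clone 42 against 880 in puroB, and 102.4 in clone 48 against 394.8 in puroD. Here the Nurr1-labelled array was the lower one in both pairs, 2.04-fold and 3.86-fold, but the groups overlapped, since clone 42 exceeded puroD. The mean difference was -1.49 ± 0.32 (SE). It was -0.45 without clone 48, -0.91 without puroB, -2.06 without puroD and -2.53 without clone 42.

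The order of Igf1 95546_g_at over the arrays was the reverse of that of the actin control's ratio of 3' to 5' signal, a sign of RNA integrity. This ratio was 1.51 in puroB, 1.68 in clone 42, 2.0 in puroD and 2.41 in clone 48, and that of Gapdh, in the same order, was 0.859, 0.935, 0.973 and 1.24. Of all tested probe sets, 7.14% had signals in that reverse order, and of the 7 tested members this 1 did. The order was looked for after the values had been seen, and the part of RNA integrity in the Igf1 difference was not tested.

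**Figure D2:**
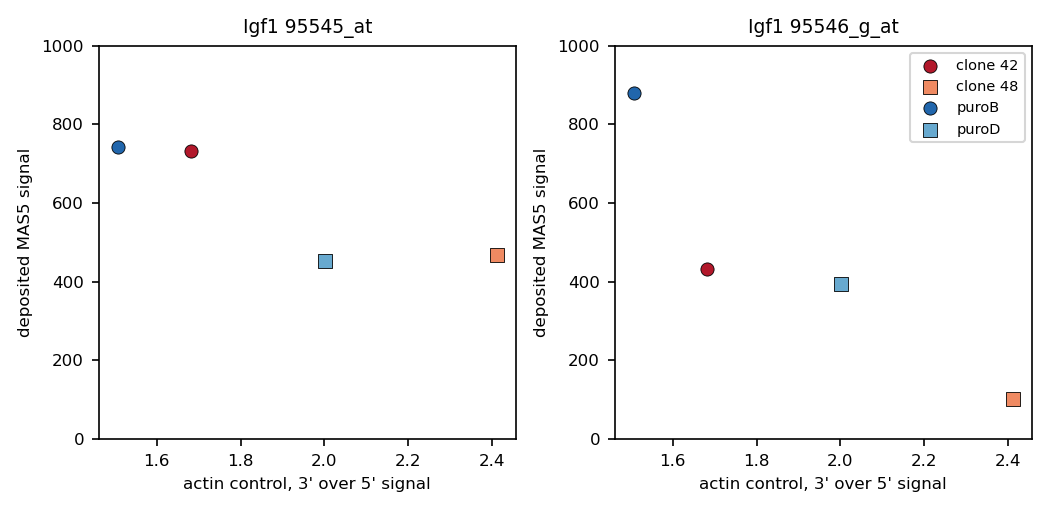
Deposited signals of the Igf1 probe sets against the 3' over 5' signal ratio of the actin control, 1 point per array. At 95546_g_at (right) the signal is lower on each array with a higher ratio, from 880 at 1.51 to 102.4 at 2.41, and at 95545_at (left) the arrays form a high pair (731.6 and 742.8) and a low pair (467.6 and 452.6).

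Igf2, the fetal and imprinted ligand, was measurable at 1 of its probe sets. At 98623_g_at the signals were 288.6 in clone 42 and 132.8 in clone 48, compared with 96.4 in puroB and 91.4 in puroD. Both Nurr1-labelled arrays lay above both controls, 2.99-fold and 1.45-fold in the pairs, and the mean log2 difference was 1.06. The controls differed by 1.05-fold and the Nurr1-labelled clones by 2.17-fold, so that most of the size came from clone 42, and without it the difference was 0.50. With 1 array over the median of all values, the probe set was not tested. The other Igf2 probe set, 98622_at, had signals between 3.9 and 14.1 on the 4 arrays, all under background. The summed fibroblast and mesenchymal markers were also highest in clone 42, with and without Col3a1, whereas clone 48 exceeded puroD in this sum only with Col3a1. Their part in the Igf2 difference was not tested.

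Both receptors were well above background and varied little. Igf1r (102224_at) had signals of 868.9 in clone 42 and 921.9 in puroB, and of 1008.9 in clone 48 and 761.5 in puroD. The highest exceeded the lowest by 1.32-fold, the groups overlapped, and the differences by label had opposite signs in the pairs (-0.09 and 0.41, mean 0.16 ± 0.30 SE). Igf2r (95117_at) had 1118.3 in clone 42 and 977.5 in clone 48, compared with 1334.7 in puroB and 1160.8 in puroD. Both Nurr1-labelled arrays were below both controls, by 1.19-fold in each pair, with a mean log2 difference of -0.25 ± 0.30 (SE). The pairs gave -0.26 and -0.25, so the SE reflects the spread over all tested probe sets and not that of Igf2r. The mean was smaller than this SE, and it was -0.08 when arrays were scaled to one median.

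Igfbp3, which carries much of the IGF in serum and can also act without it, had the largest difference by label among the tested members. At 95083_at its signals were 113.8 in clone 42 and 184.9 in clone 48, compared with 366.3 in puroB and 595.4 in puroD. The Nurr1-labelled arrays were the 2 lowest, and the ratio within each pair was 3.22-fold. Its mean log2 difference was -1.69 ± 0.31 (SE), and leaving out 1 array at a time gave -2.04 to -1.34. At 95082_at the signals were 203.9 in clone 42 against 345.8 in puroB, and 482.2 in clone 48 against 1224.4 in puroD. Within each pair the Nurr1-labelled array was again the lower one, 1.70-fold and 2.54-fold, but clone 48 exceeded puroB and the groups overlapped. The mean was -1.05 ± 0.30 (SE). It was -0.14 without puroD and -0.43 without clone 42, -1.67 without clone 48 and -1.97 without puroB.

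The matched pairs also differed in Igfbp3, in the direction opposite to Igf1. At 95082_at puroD exceeded puroB 3.54-fold and clone 48 exceeded clone 42 2.36-fold, and at 95083_at the ratios were 1.63-fold and 1.62-fold. The pair of clone 48, low in Igf1, thus had the higher Igfbp3 of each label at both probe sets. Of the variation among the 4 log2 signals, 85.3% lay between the labels at 95083_at and 31.3% at 95082_at, where 66.3% lay between the pairs. The fibroblast and mesenchymal sum was higher in the Nurr1-labelled array of both pairs, but without Col3a1 in the pair of clone 42 alone, and its part in the Igfbp3 difference was not tested. In each pair the Nurr1-labelled array had the higher Gapdh and actin ratio of 3' to 5' signal, whose part was not tested either.

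**Figure D3:**
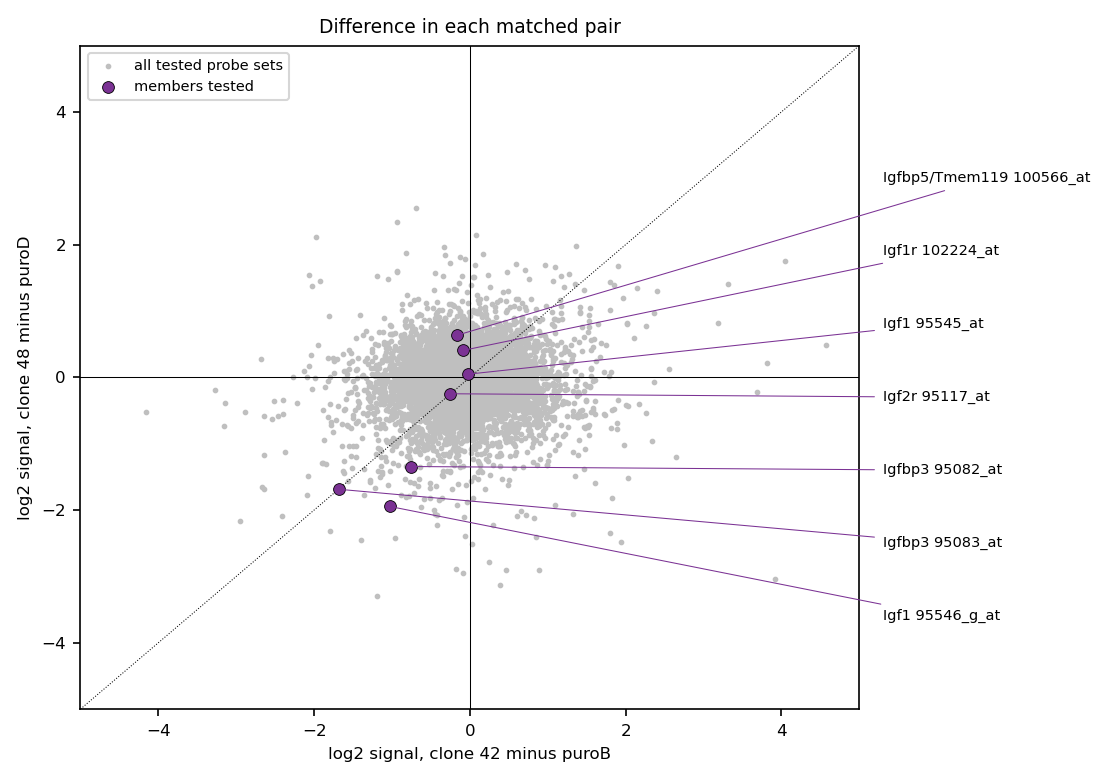
Log2 difference of the Nurr1-labelled minus the control array in the pair of clone 42 (x axis) and that of clone 48 (y axis), for all 6419 tested probe sets (grey) and the 7 tested members (purple). Igfbp3 95083_at lies on the dotted line of equal differences at -1.69, Igfbp3 95082_at and Igf1 95546_g_at also lie in the lower left, and the other 4 members lie close to the origin.

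The row shared by Igfbp5 and Tmem119 (100566_at) followed the pairs. Igfbp5 is a matrix-associated binding protein found in developing brain and muscle, and Tmem119 encodes a membrane protein of bone cells and microglia. The signals were 707.8 in clone 42 and 797.2 in puroB, but 247.6 in clone 48 and 159.8 in puroD. The arrays of the first pair were the higher ones under either label, 4.99-fold between the controls and 2.86-fold between the Nurr1-labelled clones, and 94.5% of the variation lay between the pairs. By label the differences had opposite signs (-0.17 and 0.63) with a mean of 0.23 ± 0.31 (SE). The actin ratio of 3' to 5' signal also set the pairs apart. This ratio was 1.51 in puroB and 1.68 in clone 42, and 2.0 in puroD and 2.41 in clone 48. Its part in the difference between the pairs was not tested. No other probe set on the array is annotated to either gene. On chromosome 1 Igfbp5 is the neighbour of Igfbp2 in the RefSeq gene table (GRCm38.p6), and Igfbp2 did not share its spread: its signals at 98627_at were 84.8 in clone 42 and 68.5 in clone 48, compared with 105.6 in puroB and 93 in puroD. Both Nurr1-labelled arrays were below both controls for Igfbp2, a binding protein of fetal brain, by 1.25-fold and 1.36-fold in the pairs (mean log2 -0.38). All 4 signals were above the unspiked controls but under the median of all values, so that Igfbp2 was not tested.

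The remaining binding proteins were near background. Igfbp4, which binds IGF without enhancing it, had signals of 12.8 to 29.5 at 101571_g_at and of 10.8 to 40.3 at 101570_at, where clone 48 alone exceeded its array's highest unspiked control of 39.1. At 94222_at puroD had 127.7, above its array's highest unspiked control of 59.1. Clone 42, clone 48 and puroB had 61.9, 18.6 and 41, each under that of its own array (62.7, 39.1 and 49.8). No fold is given for Igfbp4, because the arrays other than puroD gave no measurable level at that probe set. Igfbp6, which prefers Igf2 over Igf1, had 76.7 in clone 48 and 50.2 in puroB, just above the control of puroB (49.8), and 48.7 in clone 42 and 40.8 in puroD, under those of their own arrays.

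**Figure D4:**
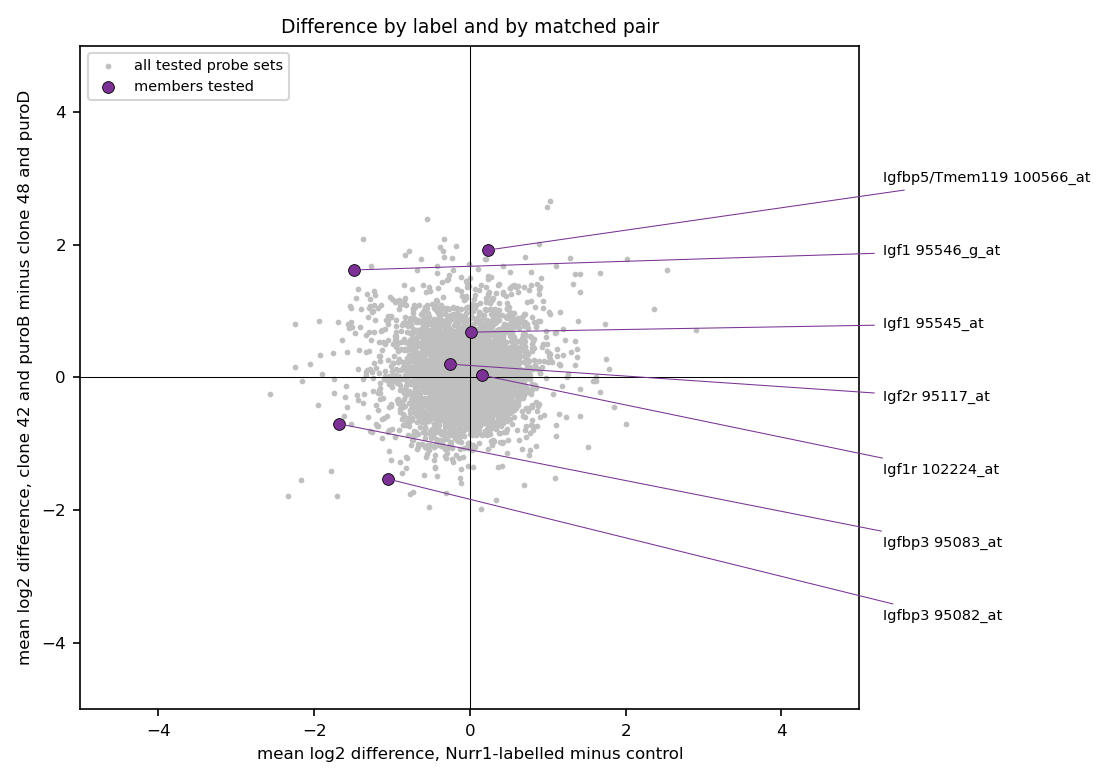
Mean log2 difference by label (x axis, Nurr1-labelled minus control) against mean log2 difference by pair (y axis, clone 42 and puroB minus clone 48 and puroD), for all tested probe sets (grey) and the 7 tested members (purple). Igfbp3 95083_at lies far to the left at -1.69, the row shared by Igfbp5 and Tmem119 lies high at 1.92 near 0 on the x axis, and Igf1 and Igfbp3 lie on opposite sides of 0 on the y axis.

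Counts over the 7 tested members are set here beside the same counts over all 6419 tested probe sets, and since the contrast chose the members nothing is read from them. In clone 42 over puroB, 2 were at least 2-fold lower (Igf1 95546_g_at and Igfbp3 95083_at; 4.78% of all) and 0 at least 2-fold higher (3.57%). In clone 48 over puroD, 3 were lower by that much (3.72%), with Igfbp3 95082_at as the third, and 0 higher (1.67%). Igf1 95546_g_at and Igfbp3 95083_at were at least 2-fold lower in both pairs, as were 0.763% of all. Any decrease in both pairs was seen in 4 members (29.7%) and any increase in both in 0 (21.7%). Both Nurr1-labelled arrays were below both controls in 2, Igfbp3 95083_at and Igf2r (17.9%), and above both in 0 (12.8%).

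Clones of one label also differed from each other. The control clones differed at least 2-fold in 3 of 7 members, Igf1 95546_g_at, Igfbp3 95082_at and the shared Igfbp5 row (6.06% of all tested), and the Nurr1-labelled clones in the same 3 (10.7%). More than 50% of the variation lay between the pairs in 4 members, these 3 and Igf1 95545_at (35.9% of all). Each of these comparisons rests on 1 array per clone and was not tested. The actin and Gapdh ratios of 3' to 5' signal also separated the pairs, and their part in these differences was not tested.

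By the rule for likeness, the profile taken was that of Igf1 95546_g_at, the tested member of the widest range (8.60-fold over the arrays). The 5 tested probe sets nearest to it, by the Euclidean distance of centred log2 signals over the 4 arrays, were those of Gfra1 (0.42), Pik3c2a (0.48), Reep1 (0.59), Csnk1d (0.61) and Adam10 (0.62). Gfra1, the co-receptor of GDNF, had 127.2 in clone 42 and 37.9 in clone 48, under the floor, compared with 254.4 in puroB and 153.1 in puroD. Pik3c2a, a class II PI 3-kinase, had 138.8 and 43 against 238.8 and 149.2. Adam10, a membrane protease, had 1153 and 327.7 against 1553.4 and 1015.1. All 5 were lowest in clone 48 and highest in puroB, as was Igf1 95546_g_at. They were chosen for likeness to that profile, so nothing is read from the shared order.

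Genes that act downstream of Igf1r were taken as a list of 50 names, of which 32 had a probe set with 1 gene and 23 were tested, each by its brightest tested probe set. In limma 0 of 23 passed in either direction over all tested probe sets, and 1, Pik3ca, had an unadjusted p under 0.05. In both pairs 6 of the list were higher (26.1%) and 4 lower (17.4%), with a median log2 difference of 0.02. Over all tested probe sets 7.38% had an unadjusted p under 0.05, 21.7% were higher in both pairs, 29.7% were lower in both, and the median was -0.04. Pik3ca, the catalytic subunit of PI 3-kinase, had signals of 120.7 in clone 42 against 478.5 in puroB, but 251.6 in clone 48 and 253.2 in puroD. Its mean log2 difference was -1.0 ± 0.41 (SE; limma adjusted p = 0.568), nearly all from the pair of clone 42, where clone 42 was the lowest array and puroB the highest. Its other tested probe set, 92452_at, gave -0.88 and -0.66 in the pairs.

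The other signalling genes that differed most in one direction had smaller values. Eif4ebp1, the translation repressor inhibited by mTOR, had 1410.1 and 1915.3 in clone 42 and clone 48, against 1130.9 and 956.7 in puroB and puroD (mean log2 0.66, limma adjusted p = 0.703). Shc1, an adaptor between receptors and Ras, had 943.4 and 963.1 against 877.5 and 493.6 (mean 0.53). The kinase genes Map2k1 and Pdpk1 had means of 0.37 and 0.32, and the PI 3-kinase subunit gene Pik3r2 one of -0.32. The receptor adaptor Gab1 gave 0.29 at its brighter probe set and -0.53 at the other.

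Of 30 listed IGF carriers, proteases, their inhibitors and mRNA-binding proteins, 25 had a probe set and 13 were tested. In limma 0 passed in either direction over all tested probe sets, and 5 had an unadjusted p under 0.05. In both pairs 6 of these were higher and 2 lower (46.2% and 15.4%, median 0.21), beside 21.7% and 29.7% of all. Adam12, a protease that cleaves Igfbp3 and Igfbp5, had 7.6 and 9.6 in the Nurr1-labelled clones, both under the floor, compared with 213.8 in puroB and 171.8 in puroD. Against the floor or the array's highest unspiked control, whichever was higher, Adam12 was lower by at least 3.41-fold in the pair of clone 42 and 4.27-fold in that of clone 48. Both Nurr1-labelled values are set to the floor and so have no spread, and no p is given for Adam12. Without it the list had 12 tested genes, 4 of them at an unadjusted p under 0.05, 6 higher and 1 lower in both pairs, and a median of 0.31. Stc2, an inhibitor of the IGF binding protein protease Pappa, had 713.5 and 629 against 319.5 and 280.6, 2.23-fold and 2.24-fold (mean 1.16, limma adjusted p = 0.144). Htra1, a secreted protease that cleaves Igfbp5, had 706.1 and 497.4 against 330.2 and 270.3 (mean 0.99, limma adjusted p = 0.237).

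Timp3, an inhibitor of metalloproteases, had a mean of 0.72, and the lysosomal proteases Ctsb and Ctsd, cargo of Igf2r, had 0.69 and 0.49. All 3 tested Ctsb probe sets were higher in the Nurr1-labelled array of both pairs. For Ctsd the difference was 0.95 in the pair of clone 42 and 0.02 in that of clone 48.

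Of 24 listed genes of the growth hormone axis and regulators of IGF genes, 18 were tested and 0 passed in limma in either direction, with 2 at an unadjusted p under 0.05. In both pairs 2 were higher and 5 lower (11.1% and 27.8%, median -0.12), beside 21.7% and 29.7% of all. Cebpd, a transcription factor that activates Igf1, had 1818.4 in clone 42 against 544.1 in puroB and 2174.4 in clone 48 against 1559.7 in puroD (mean 1.11 ± 0.35 SE, limma adjusted p = 0.294). Tgfb3 had a mean of -0.84 and Tgfb1, an inducer of Igfbp3 in many cells, one of 0.42. Socs1, an inhibitor of cytokine signalling, had -0.51, and the early growth response factor Egr1 -0.45. Plagl1, an imprinted zinc finger factor, had 231.1 and 140.2 against 302.6 and 261.9 (mean -0.65, limma adjusted p = 0.767), and -0.53 at its other probe set.

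Igf2 and Igf2r are imprinted, as are 31 genes listed beside them, of which 22 had a probe set and 6 were tested. In limma 0 passed in either direction, also at an unadjusted p under 0.05; in both pairs 2 were higher and 3 lower (33.3% and 50%, median -0.33), beside 21.7% and 29.7% of all. Besides Plagl1, the potassium channel gene Kcnq1 had -0.61 and the sarcoglycan gene Sgce -0.31, and Dlk1, a Notch-like ligand, had 0.31 and Gnas 0.11.

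**Figure D5:**
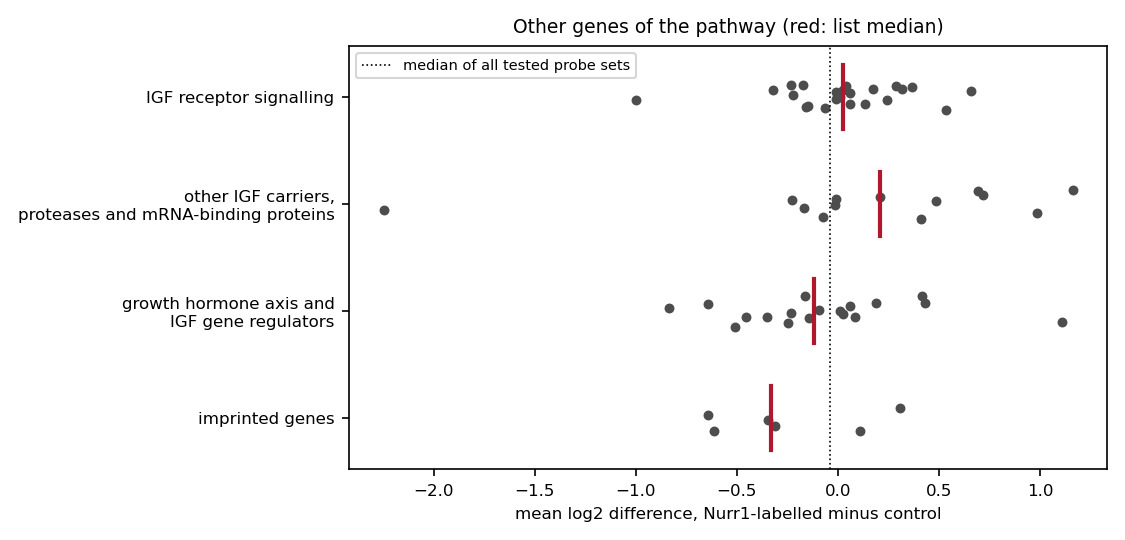
Mean log2 difference by label of each tested gene of the 4 lists (1 point per gene, scattered vertically for sight), with the list median as a red bar and the median of all tested probe sets as a dotted line. The medians are 0.02, 0.21, -0.12 and -0.33 from top to bottom, and the outlying point at -2.25 is Adam12, whose Nurr1-labelled arrays are at the floor.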

How the data were processed

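Per the labels' protocols, total RNA of each of 4 clones was labelled with biotin and hybridised to Affymetrix arrays. MAS5 is named in the submitters' processing notes, without a version or scaling target. What was deposited is a linear intensity for each probe set and array, between 0.1 and 26694.8. Trimmed means of 500.4 to 500.5 show a common scaling.

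Each array was rescaled to a mean of 500 after trimming 2% from each end, values under the 30th percentile (40.3) were set to it, and log2 was taken. Rows over the median on 2 arrays were tested, without 66 array controls. limma 3.58.1 (R 4.3.3) included the matched pair as a blocking term, and eBayes allowed for a trend in variance with mean signal. Benjamini-Hochberg adjusted p-values were called at 0.05. The residual degree of freedom was 1, and the prior added 13.1. Standard errors and p-values therefore rest mostly on the spread between clones over all tested probe sets, and the number of arrays limits precision. The pairing comes from the labels, and paired arrays deviated together from their group means (r = 0.19 over genes, not independent of each other). The design text writes clone 42 beside puroD too, and the sample descriptions, with clone 48 there, were followed.

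Symbols came from the platform annotation (10814 gene rows with 1 symbol, 396 with several and 1193 with none) and were compared through Entrez identifiers with RefSeq (GRCm38.p6), with 0 updates. Promoter windows came from RefSeq. Members, lists and rules were chosen with earlier results of these data known. Named are all member probe sets, Nr4a2, list genes that passed or differed most in one direction (up to 6 per list), and the 5 nearest profiles. Marker sums without the brightest gene, list counts without genes at the floor, Gab1 and the third and weaker probe sets were chosen after values were seen. Fabp7 and Id3 were also named after values were seen. The fit was tested on simulated data. Alternatives were quantile and median scaling, other floors and filters, no block, and each array left out.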

Additional observations from a re-analysis of the deposited data

Results flagged for a closer look

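In 3 of the 7 tested member probe sets, all above background on every array, the matched pairs moved in opposite directions, which a single array per clone does not allow to test. Over all 6419 tested probe sets, 3124 did not move the same way in both pairs, so nothing is read from this count. For the row shared by Igfbp5 and Tmem119 (100566_at) the log2 difference in the pair of clone 42 was lower than that in the pair of clone 48, by -0.80 (-0.17 less 0.63). For Igf1r (102224_at) it was -0.49 (-0.09 less 0.41). For Igf1 95545_at it was -0.069, with both differences close to 0. The differences between pairs were not tested. Groups of 2 clones are too small for a search for outlying samples.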

How the results depend on the processing

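The count of 7 called probe sets (4 higher, 3 lower) was not stable. In limma it was 0 with quantile normalization (375 at an unadjusted p under 0.05), with no floor (473), with a floor at the 20th percentile (474), with no filter (560) and with no replicate block (287), that is, without the pairing. It was 51 with scaling to one median (36 higher, 15 lower, including all 7), where the median of all tested probe sets moved from -0.04 to 0.13, and 49 with a filter on all 4 arrays (27 higher, 22 lower, 4 of the 7). Leaving out 1 array gave 0 to 27 calls: 27 without clone 42, 20 without clone 48, 0 without puroB (197 at an unadjusted p under 0.05) and 3 without puroD, of which 3, 5, 0 and 1 were among the 7. Those fits leave a group with 1 clone, which is assumed to vary like the other, and have no pair. The count of IGF receptor signalling genes called was 0 in every setting run.

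Of the 9 member probe sets above background on all arrays, 7 kept the sign of their mean difference in all 8 settings of scaling, floor or an array left out. The exceptions were Igf1 95545_at (-0.35 to 0.37) and the row shared by Igfbp5 and Tmem119 (-0.93 to 1.39), each with the other sign in 2 of the settings that leave out an array. Filters and the block cannot move these means, and the other floors left them unchanged. Quantile and median scaling gave -1.60 and -1.52 for Igfbp3 95083_at, beside -1.69 in the main setting. For Igf1 95546_g_at they gave -1.34 and -1.32, beside -1.49. Signals near the unspiked controls limit what can be said of Igfbp4, Igfbp6 and Igf2 98622_at.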
